A study of Mus musculus with 12 samples.

Results

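The genes described here encode synaptic adhesion molecules of 3 families: the neurexins Nrxn2 and Nrxn3, the neuroligins Nlgn1, Nlgn2 and Nlgn3, and the leucine-rich repeat transmembrane proteins Lrrtm1, Lrrtm2, Lrrtm3 and Lrrtm4. They were chosen by gene symbol, 9 of the 52634 genes in the count table. RNA was sequenced from the dorsal hippocampus of mouse pups at postnatal day 7. The genotype SERTPyramid, written SERTPyramid∆ in the sample titles, is named for removal of the serotonin transporter gene Slc6a4 (SERT) from pyramidal neurons, and the control genotype, SERTfl/fl, carries floxed Slc6a4. No source used here gives the Cre driver. By its title, the study concerns SERT in CA3 pyramidal neurons around birth and its sex-biased effects on hippocampal circuits. Each of the 12 libraries pooled tissue of 4 mice, and each of 4 groups had 3 libraries: SERTPyramid labelled female, SERTfl/fl labelled female, SERTPyramid labelled male and SERTfl/fl labelled male. Litters are not given, and the p-values rest on the spread between pools.

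Neurexins sit mainly in the presynaptic membrane and reach across the cleft to several postsynaptic partners. Neuroligins and LRRTM proteins are among these partners, and their binding to neurexins recruits release machinery on the axonal side and receptors with their scaffolds on the dendritic side. Neuroligin 1 is best known from excitatory synapses, neuroligin 2 from inhibitory synapses and neuroligin 3 from both, while LRRTM proteins organize excitatory synapses. The first postnatal weeks are a period of synapse formation in the rodent hippocampus.

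Among the 8 genes with counts, Nlgn2 stood highest per exon length and Lrrtm4 lowest, and no gene passed the test for a genotype difference. The windows below show the 250 bases before a RefSeq start of the highest gene (Nlgn2), the second highest (Lrrtm1), the lowest (Lrrtm4) and the gene closest to a genotype difference (Nlgn1), from RefSeq on GRCm38.p6, read 5′ to 3′ along the gene's strand. Capitals mark matches on either strand to the GC box GGGCGG or the TATA box TATAAA; the cyclic AMP response element TGACGTCA was also searched and was in none of the 4 windows. No 2 of these matches overlapped. Lrrtm4 and Nlgn1 each have 2 windows in the table, and the one outside annotated exons is printed for each; that of Nlgn1 lies inside the gene, far from its 5′ end.
Nlgn2, chr11:69837785-69838034, minus strand: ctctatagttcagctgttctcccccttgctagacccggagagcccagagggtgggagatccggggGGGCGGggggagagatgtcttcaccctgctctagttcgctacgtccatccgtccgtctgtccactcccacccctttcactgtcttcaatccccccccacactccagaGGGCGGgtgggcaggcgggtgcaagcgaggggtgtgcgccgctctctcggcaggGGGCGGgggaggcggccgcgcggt
Lrrtm1, chr6:77242227-77242476, plus strand: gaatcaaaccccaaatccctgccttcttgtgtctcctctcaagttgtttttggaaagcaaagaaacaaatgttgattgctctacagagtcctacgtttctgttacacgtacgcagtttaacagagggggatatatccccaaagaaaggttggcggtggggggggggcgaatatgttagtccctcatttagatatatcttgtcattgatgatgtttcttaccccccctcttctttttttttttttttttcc
Lrrtm4, chr6:80018627-80018876, plus strand: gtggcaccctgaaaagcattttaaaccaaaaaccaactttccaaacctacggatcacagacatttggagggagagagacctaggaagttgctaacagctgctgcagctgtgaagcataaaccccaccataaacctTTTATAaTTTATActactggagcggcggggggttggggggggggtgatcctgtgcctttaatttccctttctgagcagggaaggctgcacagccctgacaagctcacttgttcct
Nlgn1, chr3:26153987-26154236, minus strand: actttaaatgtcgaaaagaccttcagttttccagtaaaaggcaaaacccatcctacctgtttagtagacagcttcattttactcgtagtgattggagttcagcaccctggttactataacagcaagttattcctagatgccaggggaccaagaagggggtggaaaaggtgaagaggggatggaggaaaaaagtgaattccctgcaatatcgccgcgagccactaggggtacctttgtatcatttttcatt
The Nlgn2 window held 3 GC boxes and 18 CpG dinucleotides with a GC content of 67.6%. The Lrrtm4 window shown held 2 TATA boxes, both read on the opposite strand, with 3 CpG dinucleotides and a GC content of 49.2%, while the other Lrrtm4 window, chr6:80019393-80019642, held no match, 8 CpG dinucleotides and 54.0% GC. The Lrrtm1 window (5 CpG, 42.0% GC) and the Nlgn1 window shown (5 CpG, 43.6% GC) held no match, nor did the other Nlgn1 window near the gene's 5′ end, chr3:26331910-26332159 (9 CpG, 53.6% GC). Of the 32851 windows of the same length in the RefSeq table, 32.7% held a GC box, 12.4% a TATA box and 1.55% the cyclic AMP response element, with a median of 6 CpG dinucleotides and 52.4% GC. These matches are a description of the letters. Of the 9 genes, 6 had windows in the table, among them Nrxn3 and Lrrtm3.

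Library totals ran from 18747249 to 25522347 counts. In 10 of the 12 libraries, Xist and Y-linked counts pointed to the sex opposite to the label, the exceptions being SERTfl/fl replicate 1 of each label, so female and male below name labels only. SERTfl/fl replicate 3 labelled female held both, with 527 Xist and 2849 Y-linked counts. The other libraries with mainly Y-linked counts had 13 to 59 Xist counts. Within each label, the SERTPyramid libraries pointed to 1 sex and the SERTfl/fl libraries to both, so genotype and sex are partly confounded there. Over all 12 libraries, each genotype had as many libraries with mainly Xist counts as with mainly Y-linked counts. Slc6a4 was near the detection limit, with 1 to 12 counts in SERTPyramid and 5 to 16 in SERTfl/fl libraries labelled female, and 3 to 8 in SERTPyramid and 0 to 17 in SERTfl/fl libraries labelled male. It averaged 0.217 ± 0.221 CPM in SERTPyramid and 0.434 ± 0.235 CPM in SERTfl/fl libraries labelled female, and 0.255 ± 0.110 CPM in SERTPyramid and 0.391 ± 0.349 CPM in SERTfl/fl libraries labelled male (SD, n = 3 each). The 2-sided exact permutation p was 0.3 for the female label and 0.5 for the male label, and a design of 3 against 3 cannot go below 0.1. Every listed marker of CA1, CA3 and dentate granule neurons was detected. Of the 4 listed thalamus markers 3 were detected as well, and the transcription factor gene Gbx2 had too few counts to be tested. The thalamus markers summed to 77.9 to 94.9 CPM over the 12 libraries. Choroid plexus markers, a sign of neighbouring ventricle tissue, summed to 26.2 to 2431 CPM over the SERTPyramid libraries and 959 to 1807 CPM over the SERTfl/fl libraries. In bulk tissue, fewer cells of a type and less RNA per cell cannot be told apart.

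Nrxn2 (chromosome 19, 6418731 to 6544169, plus strand, GRCm38) was listed at 0 counts in all 12 libraries. The 0 was not particular to the gene. The unbroken stretch of listed genes at 0 spanned 432.9 kb and held 21 genes, of which 10 were protein-coding, from Atg2a to Slc22a12. They included Sf1, a splicing factor gene, and Men1, the menin gene, which cells use generally. The nearest coding gene before the stretch, Ppp2r5b, had 3 counts over all libraries, and the nearest after it, Rps6ka4, had 9906. Of the 21894 protein-coding genes deposited, 15.9% were at 0. The row therefore gives no level for Nrxn2, and no comparison of genotypes could be made for it.

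**Figure D1:**
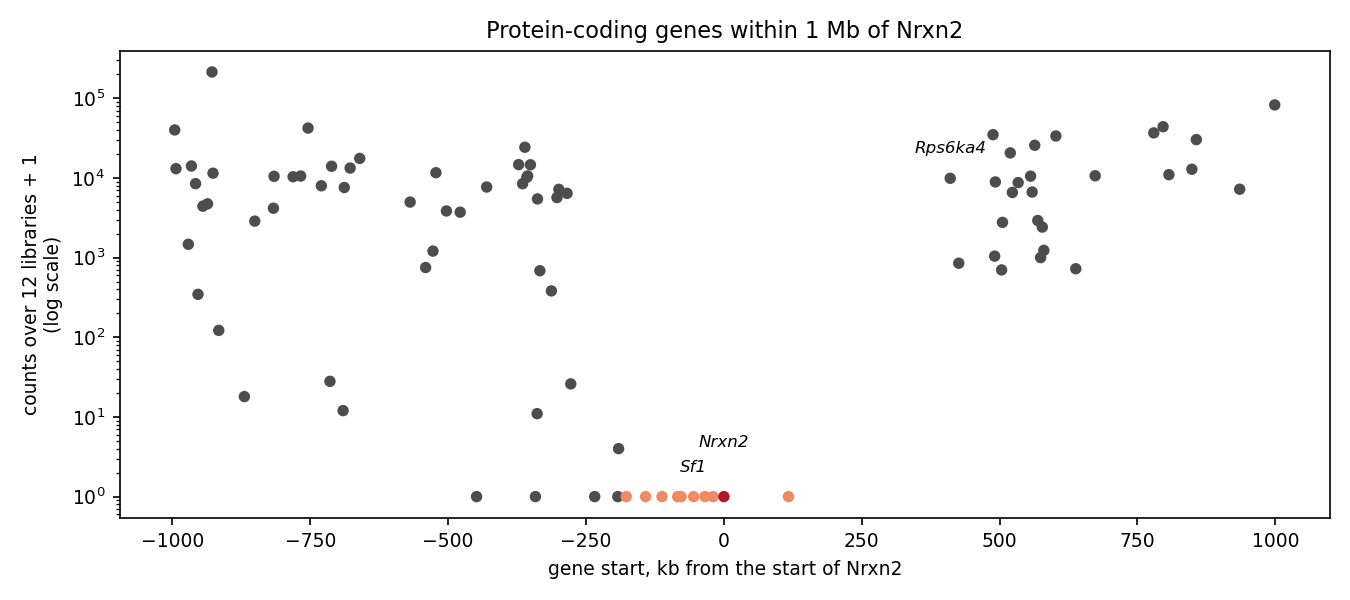
Counts summed over the 12 libraries, plus 1 on a log scale, for protein-coding genes whose start lies within 1 Mb of the start of Nrxn2 (red); orange points are the other genes of the unbroken stretch at 0. The points at the bottom around Nrxn2 have 0 counts, while Rps6ka4 to the right has 9906.

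Levels of different genes were compared per exon length, as CPM (counts scaled to library size with TMM, edgeR's correction for library composition) divided by the kilobases of merged exons. Nlgn2 (chromosome 11, 69823122 to 69837784), whose protein is a component of inhibitory postsynapses, had 95.1 ± 4.31 CPM per kb in SERTPyramid and 94.1 ± 1.89 CPM per kb in SERTfl/fl libraries (SD, n = 6 each). Lrrtm1 (chromosome 6, 77242689 to 77257791), a postsynaptic neurexin receptor of excitatory synapses, followed with 41.5 ± 0.840 CPM per kb in SERTPyramid and 41.5 ± 1.73 CPM per kb in SERTfl/fl libraries (SD, n = 6 each). Nrxn3 (chromosome 12, 88722876 to 90334935) came next, with 16.001 ± 1.55 CPM per kb in SERTPyramid and 16.4 ± 1.16 CPM per kb in SERTfl/fl libraries (SD, n = 6 each). These 3 genes did not overlap each other or any of the rest in any library.

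Below them the order was closer. Lrrtm2 (chromosome 18, 35209003 to 35215024) had 8.46 ± 0.432 CPM per kb in SERTPyramid and 8.65 ± 0.529 in SERTfl/fl libraries (SD, n = 6 each). Nlgn3 (chromosome X, 101299168 to 101325963) had 7.53 ± 0.393 CPM per kb in SERTPyramid and 7.37 ± 0.347 in SERTfl/fl libraries, and Nlgn1 (chromosome 3, 25426215 to 26332460) had 6.98 ± 0.420 in SERTPyramid and 7.47 ± 0.471 in SERTfl/fl libraries (SD, n = 6 each). The ranges of Lrrtm2, Nlgn3 and Nlgn1 overlapped, so that the order among these 3 neighbours was within the spread between libraries. Lrrtm3 (chromosome 10, 63928472 to 64090277) had 3.90 ± 0.382 CPM per kb in SERTPyramid and 3.90 ± 0.595 in SERTfl/fl libraries (SD, n = 6 each). Lrrtm4 (chromosome 6, 80018877 to 80810143), known as a partner of heparan sulfate proteoglycans on dentate granule neurons, was lowest, with 1.61 ± 0.0779 CPM per kb in SERTPyramid and 1.71 ± 0.0791 in SERTfl/fl libraries (SD, n = 6 each). Neither overlapped any other gene.

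**Figure D2:**
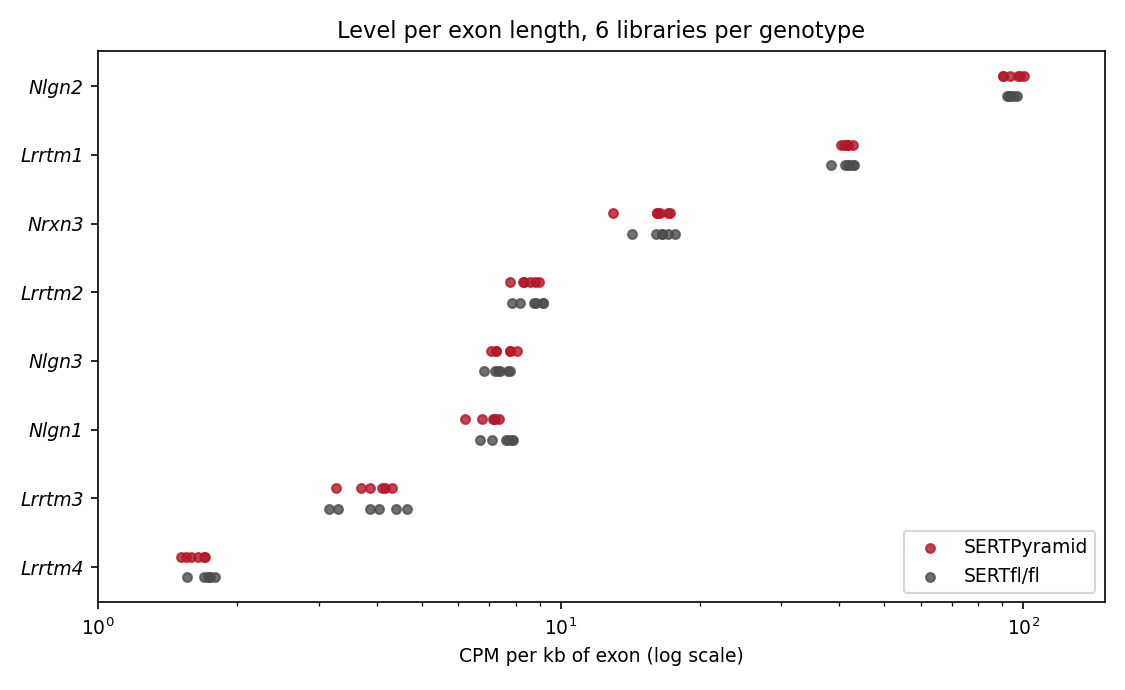
CPM per kb of exon on a log axis for the 8 genes with counts; each point is a library, with the 6 SERTPyramid libraries drawn above the 6 SERTfl/fl libraries. Nlgn2 lies near 95 and Lrrtm4 near 1.6, while the points of Lrrtm2, Nlgn3 and Nlgn1 overlap.

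Within families the make-up differed little between genotypes. Nlgn2 made up 86.8 ± 0.572% of the summed neuroligin level per kb in SERTPyramid and 86.4 ± 0.685% in SERTfl/fl libraries (SD, n = 6 each). Lrrtm1 made up 74.8 ± 0.731% of the summed LRRTM level per kb in SERTPyramid and 74.5 ± 1.33% in SERTfl/fl libraries (SD, n = 6 each). Annotation bears on some of these levels, since other genes share exon bases with them and the library kit does not mark strand. A processed transcript on the same strand, Gm21986, covers 41.2% of the exon length of Nlgn3, and the antisense gene Gm4409 covers 25.1% of that of Lrrtm4. These genes had 110 and 1 counts over all libraries. The antisense gene A830092H15Rik, with 196 counts, covers 9.16% of the exon length of Nlgn1. How a read lying in 2 genes was counted is not given, so the levels of Nlgn1, Nlgn3 and Lrrtm4 are uncertain in this respect. Lrrtm1, Lrrtm2 and Lrrtm3 lie inside Ctnna2, Ctnna1 and Ctnna3, the alpha-catenin genes, on the opposite strand, and only Lrrtm2 shares exon bases with its host (1.58% of its exon length). Ctnna1 had 18926 counts over all libraries. Nrxn3 shares 3.48% of its exon length with Gm37980, which had 2 counts. The levels of Lrrtm2 and Nrxn3 are uncertain over these bases.

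The main comparison asked whether these genes differ between SERTPyramid and SERTfl/fl hippocampus, within each labelled sex. In edgeR's quasi-likelihood test over 17631 genes, 0 of the 8 tested genes passed an adjusted p (Benjamini-Hochberg) of 0.05 in either labelled sex, and 0% of all genes did. At an unadjusted p under 0.05 there was 1 of the 8 among labelled females, against 8.04% of all genes, and 0 of the 8 among labelled males, against 3.16%. In the labelled-male libraries alone the count was also 0, against 1.86% of all genes. DESeq2 called 0 of the 8 as well. The median log2 fold change (SERTPyramid minus SERTfl/fl) of the 8 genes was -0.02 among labelled females, with 3 above 0 and 5 below, and -0.05 among labelled males, with 1 above 0 and 7 below. Over all genes the medians were -0.0004 and 0.0016.

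**Figure D3:**
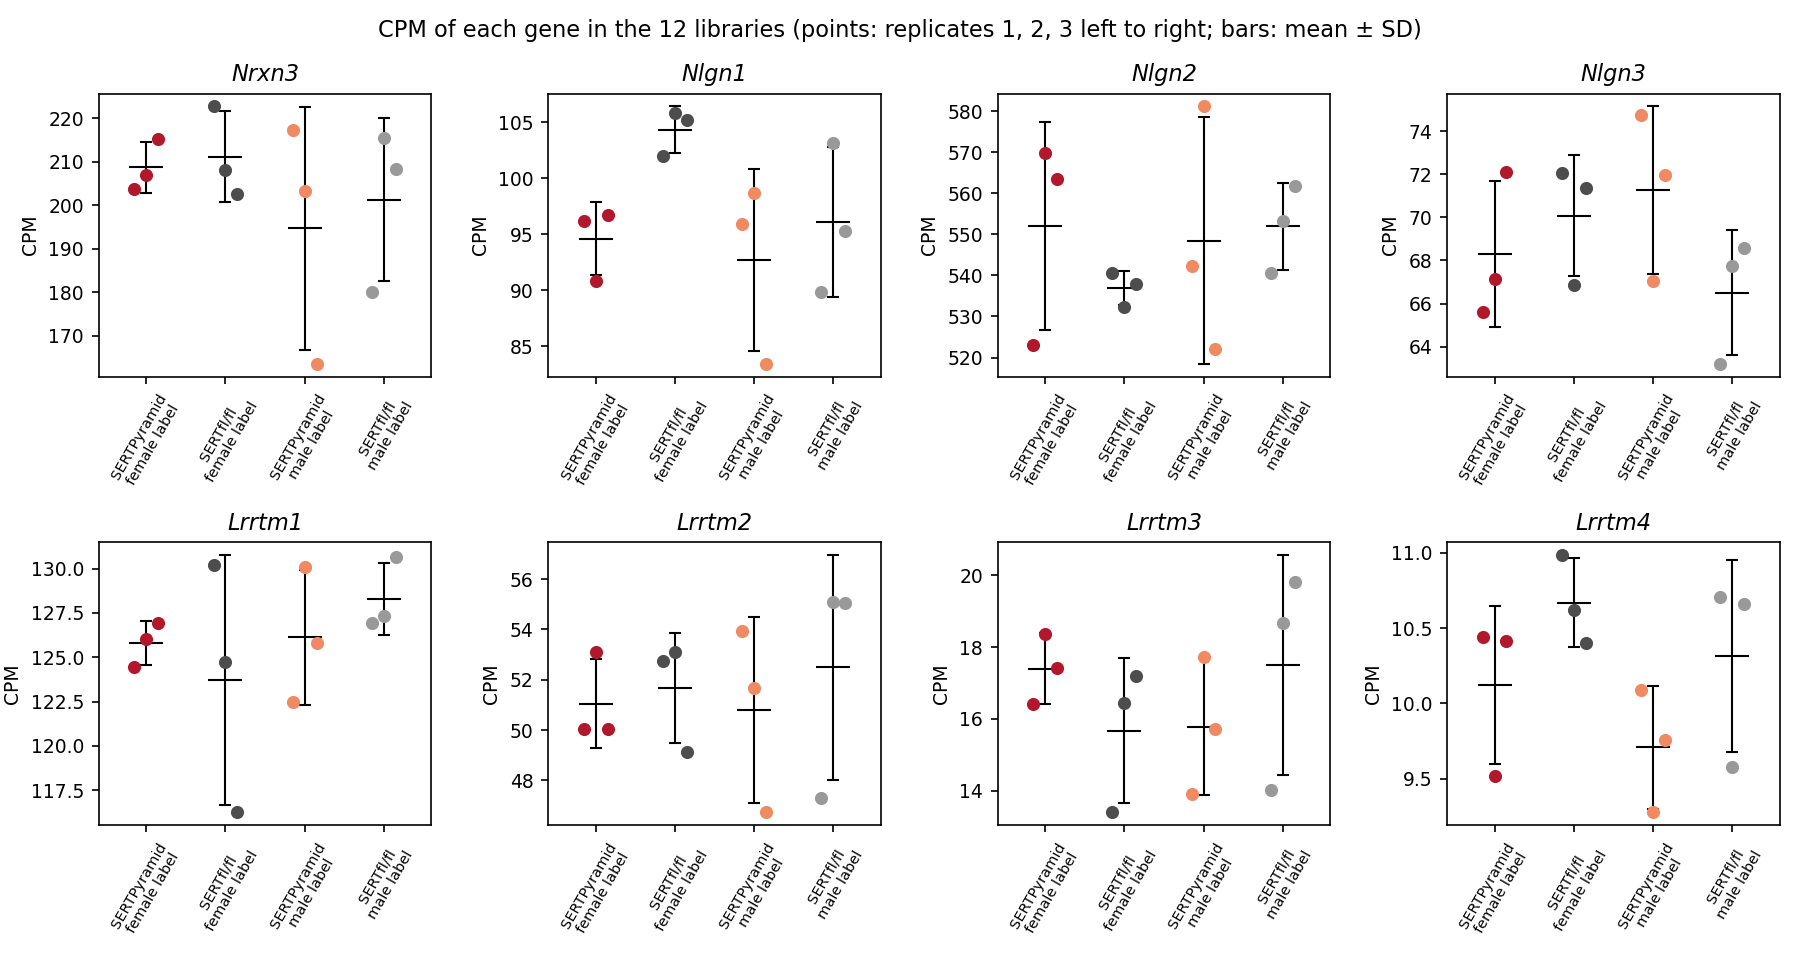
CPM of each gene with counts in the 4 groups, with SERTPyramid left of SERTfl/fl within each labelled sex; points are libraries, bars are mean ± SD (n = 3), and the vertical axes do not start at 0. Only for Nlgn1 among labelled females do the 2 genotypes not overlap.

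Nlgn1, the neuroligin of excitatory synapses, came closest to a difference. Among labelled females its CPM was 96.2, 90.8 and 96.7 in SERTPyramid libraries, against 102, 106 and 105 in SERTfl/fl libraries. All 3 SERTPyramid libraries lay below all 3 SERTfl/fl libraries, as they did for 9.38% of all genes tested, while 9.5% lay wholly above. Among labelled males no gene of the 8 separated, against 3.26% of all genes below and 3.67% above. edgeR put the log2 ratio of SERTPyramid over SERTfl/fl at -0.14 ± 0.06 (SE, 95% interval -0.27 to -0.01). Its unadjusted p was 0.0317 and its adjusted p 0.582. Fitted on the 6 labelled-female libraries alone, where 2.43% of 17108 genes were called and 13.9% had an unadjusted p under 0.05, edgeR gave -0.14 ± 0.04 (SE) with an adjusted p of 0.0702. The 415 genes called in that fit became 136 without SERTPyramid replicate 2, 158 without SERTfl/fl replicate 2 and 251 without SERTfl/fl replicate 1. Among labelled males Nlgn1 had 96.0, 98.7 and 83.4 CPM in SERTPyramid libraries, against 89.9, 103 and 95.3 CPM in SERTfl/fl libraries. These groups overlapped, and edgeR put the log2 ratio at -0.05 ± 0.06 (SE), with an adjusted p of 0.999. SERTfl/fl replicate 1 had mainly Xist counts in the labelled-female set and mainly Y-linked counts in the labelled-male set, unlike the libraries beside it. Grouped by these counts, the genotypes overlapped in both sets. Libraries with mainly Y-linked counts had 90.8 to 96.7 CPM in SERTPyramid and 89.9 to 106 CPM in SERTfl/fl. Those with mainly Xist counts had 83.4 to 98.7 CPM in SERTPyramid and 95.3 to 103 CPM in SERTfl/fl. In edgeR's test the labelled-female minus labelled-male difference in log2 ratio was -0.09 ± 0.09 (adjusted p = 0.999), and the mean of both was -0.10 ± 0.04 (adjusted p = 0.756), each with its SE. Dentate granule markers also stood lower in the labelled-female SERTPyramid libraries, their summed level being 273 to 288 CPM, against 306 to 365 CPM in SERTfl/fl. Of the 6 markers 5 were below 0 in that contrast (median log2 ratio -0.19), whereas 5 of the 6 were above 0 among labelled males (median 0.10). Endothelial markers were below 0 in 5 of 5 among labelled females (median -0.14). Pyramidal neuron markers were below 0 in 5 of 7 among labelled females (median -0.06) and in 5 of 7 among labelled males (median -0.07). In the mean over labelled sexes they were below 0 in 7 of 7 (median -0.03). Their sums overlapped among labelled females (4290 to 4624 CPM in SERTPyramid and 4460 to 5020 CPM in SERTfl/fl). Also wholly below 0 among labelled females were markers of choroid plexus (6 of 6, median -0.40), CA3 (5 of 5, median -0.02) and thalamus (3 of 3 tested, median -0.12). CA1 markers were below 0 there in 4 of 5 (median -0.02), and astrocyte and microglia markers in 3 of 5 each (medians -0.03 and -0.02). Interneuron markers were above 0 in 5 of 6 (median 0.04) and oligodendrocyte lineage markers in 4 of 6 (median 0.02). The part of these markers in the Nlgn1 values was not tested.

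Nlgn2 differed by less than its spread. Labelled-female SERTPyramid libraries had 523, 569.8 and 563 CPM, against 540.5, 532 and 538 CPM in SERTfl/fl libraries. Labelled-male SERTPyramid libraries had 542, 581 and 522 CPM, against 541, 553 and 562 CPM in SERTfl/fl libraries. The SERTPyramid values enclosed the SERTfl/fl values in both labelled sexes. With at least 10147 counts in every library it was the most deeply counted of the genes. Averaged over the labelled sexes, edgeR put the log2 ratio at 0.02 ± 0.04 (SE), with an adjusted p of 0.947 and a 95% interval of 0.960-fold to 1.06-fold.

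Nlgn3, the X-linked neuroligin, had 65.6, 67.1 and 72.1 CPM in labelled-female SERTPyramid libraries, against 72.0, 66.9 and 71.3 CPM in SERTfl/fl libraries. Labelled-male SERTPyramid libraries had 74.7, 67.0 and 72.0 CPM, against 63.2, 67.7 and 68.6 CPM in SERTfl/fl libraries. The groups overlapped in both labelled sexes. edgeR put the log2 ratio at -0.04 ± 0.06 (SE) among labelled females (adjusted p = 0.897) and at 0.10 ± 0.06 among labelled males (adjusted p = 0.999). These values differed by -0.14 ± 0.08 (SE), with an unadjusted p of 0.0991 and an adjusted p of 0.999 in edgeR. The lowest of the 12 values, 63.2 CPM, came from SERTfl/fl replicate 1 labelled male, which is 1 of the 2 libraries whose sex-chromosome transcripts match the label. With summed Y-linked expression as a covariate the labelled-male value was 0.08 (adjusted p = 0.970, edgeR).

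Nrxn3 encodes both long and short neurexin forms from separate starts, which the counts of a whole gene do not separate. Labelled-female SERTPyramid libraries had 204, 207 and 215 CPM, against 223, 208 and 203 CPM in SERTfl/fl libraries. Labelled-male SERTPyramid libraries had 217, 203 and 164 CPM, against 180.1, 216 and 208 CPM in SERTfl/fl libraries. The groups overlapped in both, and SERTPyramid replicate 3 labelled male was the lowest of the 12. edgeR put the log2 ratio at -0.02 ± 0.09 (SE) among labelled females (adjusted p = 0.977) and at -0.05 ± 0.09 among labelled males (adjusted p = 0.999). Without that lowest library the labelled-male value was 0.06. Its pyramidal neuron markers also had the lowest sum of the 12 libraries, 4006 CPM, and their part in the Nrxn3 value was not tested.

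The LRRTM genes gave no difference beyond the spread between libraries. Lrrtm1 was among the steadiest, with a range of 122 to 130.1 CPM and a median of 126 CPM over the 6 SERTPyramid libraries, against 116 to 131 CPM and a median of 127 CPM over the 6 SERTfl/fl libraries. Averaged over the labelled sexes, edgeR put its log2 ratio at -0.0004 ± 0.03 (SE), with an adjusted p of 0.999 and a 95% interval of 0.953-fold to 1.05-fold. Lrrtm2, a close relative of Lrrtm1 and also a neurexin receptor, ranged from 46.7 to 54.0 CPM with a median of 50.9 CPM in SERTPyramid libraries, against 47.3 to 55.1 CPM and a median of 52.9 CPM in SERTfl/fl libraries. For Lrrtm2 the same average was -0.03 ± 0.05 (SE), and its edgeR adjusted p was 0.905. The genotype groups overlapped for both genes.

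Lrrtm3, which also binds neurexins, had the widest relative spread of the 8 genes, with a coefficient of variation of 12.2% over the 12 libraries against 3.13% for Lrrtm1. Labelled-female SERTPyramid libraries had 16.4, 18.4 and 17.4 CPM, against 13.4, 16.4 and 17.2 CPM in SERTfl/fl libraries. Labelled-male SERTPyramid libraries had 13.9, 17.7 and 15.7 CPM, against 14.0, 18.7 and 19.8 CPM in SERTfl/fl libraries. edgeR put the log2 ratio at 0.15 ± 0.12 (SE) among labelled females (adjusted p = 0.805) and at -0.16 ± 0.12 among labelled males (adjusted p = 0.999). The difference between them, 0.31 ± 0.18, had an adjusted p of 0.999 by edgeR and a 95% interval of -0.07 to 0.68. The 3 lowest Lrrtm3 values came from replicate 1 of 3 groups: SERTPyramid labelled male, SERTfl/fl labelled female and SERTfl/fl labelled male. The summed level of the 4 thalamus markers was also lowest in these libraries, at 77.9, 79.4 and 78.5 CPM, against 80.6 to 94.9 CPM in the other 9. The 80.6 CPM came from the remaining replicate 1, SERTPyramid labelled female, whose Lrrtm3 value was 16.4 CPM. Slc17a6, a vesicular glutamate transporter gene, made up most of that sum and was itself lowest in the 3 libraries, at 64.1, 66.2 and 66.9 CPM, against 69.1 to 82.3 CPM in the other 9. The 69.1 CPM was again from SERTPyramid replicate 1 labelled female. Tcf7l2 was at 7.04, 5.91 and 4.58 CPM in the same 3 libraries, against 5.04 to 7.22 CPM in the other 9, and Lef1 at 6.61, 7.27 and 6.98 CPM, against 4.78 to 7.57 CPM. Tcf7l2 and Lef1 are also thalamus markers, and Gbx2, the remaining one, had 0 to 3 counts per library. The part of these markers in the Lrrtm3 values was not tested. The host gene Ctnna3 was low, at 0.636 to 1.13 CPM.

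Lrrtm4 had 10.4, 9.52 and 10.4 CPM in labelled-female SERTPyramid libraries, against 10.99, 10.6 and 10.4 CPM in SERTfl/fl libraries. Labelled-male SERTPyramid libraries had 10.1, 9.28 and 9.76 CPM, against 10.7, 9.58 and 10.7 CPM in SERTfl/fl libraries. The SERTPyramid mean was the lower in both labelled sexes, but the groups overlapped in each. edgeR put the log2 ratio at -0.07 ± 0.09 (SE) among labelled females (adjusted p = 0.862) and at -0.08 ± 0.09 among labelled males (adjusted p = 0.999). Counts of 201 to 269 per library limit its precision.

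**Figure D4:**
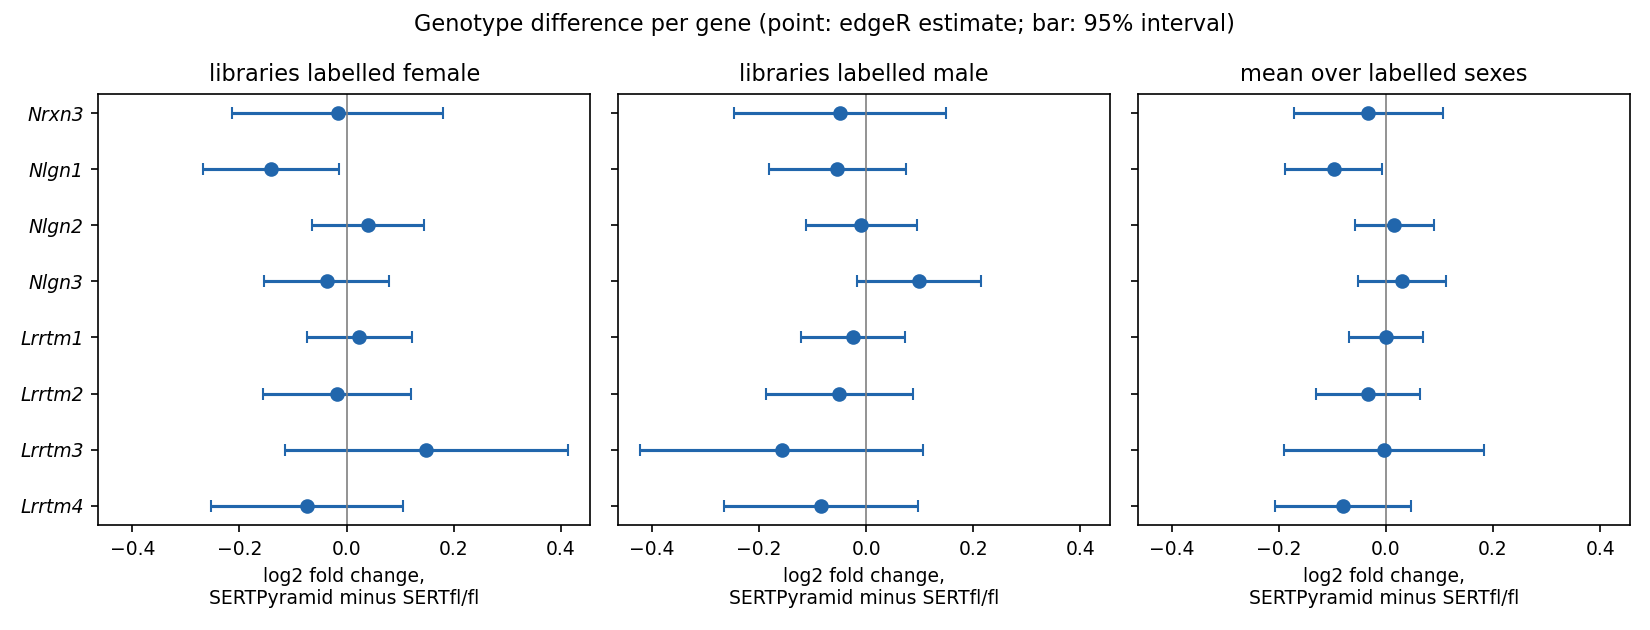
Log2 fold change, SERTPyramid minus SERTfl/fl, of each gene with counts among labelled females, among labelled males and averaged over both; points are edgeR estimates and bars 95% intervals. The interval of Nlgn1 lies below 0 among labelled females (-0.27 to -0.01) and in the mean, before adjustment for the number of genes tested, and the other intervals include 0.

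The 95% intervals concern differences in bulk tissue between the labelled groups, and they do not bound a change within pyramidal neurons alone. Averaged over the labelled sexes, the widest interval was that of Lrrtm3 (0.876-fold to 1.13-fold) and the narrowest that of Lrrtm1. Within a label the Lrrtm3 interval was wider, at 0.923-fold to 1.33-fold among labelled females and 0.746-fold to 1.08-fold among labelled males. In the test of whether the genotype difference itself differed between labelled sexes, 0 of the 8 genes passed and 0 had an unadjusted p under 0.05, against 4.45% of all genes. Averaged over labelled sexes, Nlgn1 alone of the 8 had an unadjusted p under 0.05 (0.0356), against 6.49% of all genes.

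**Figure D5:**
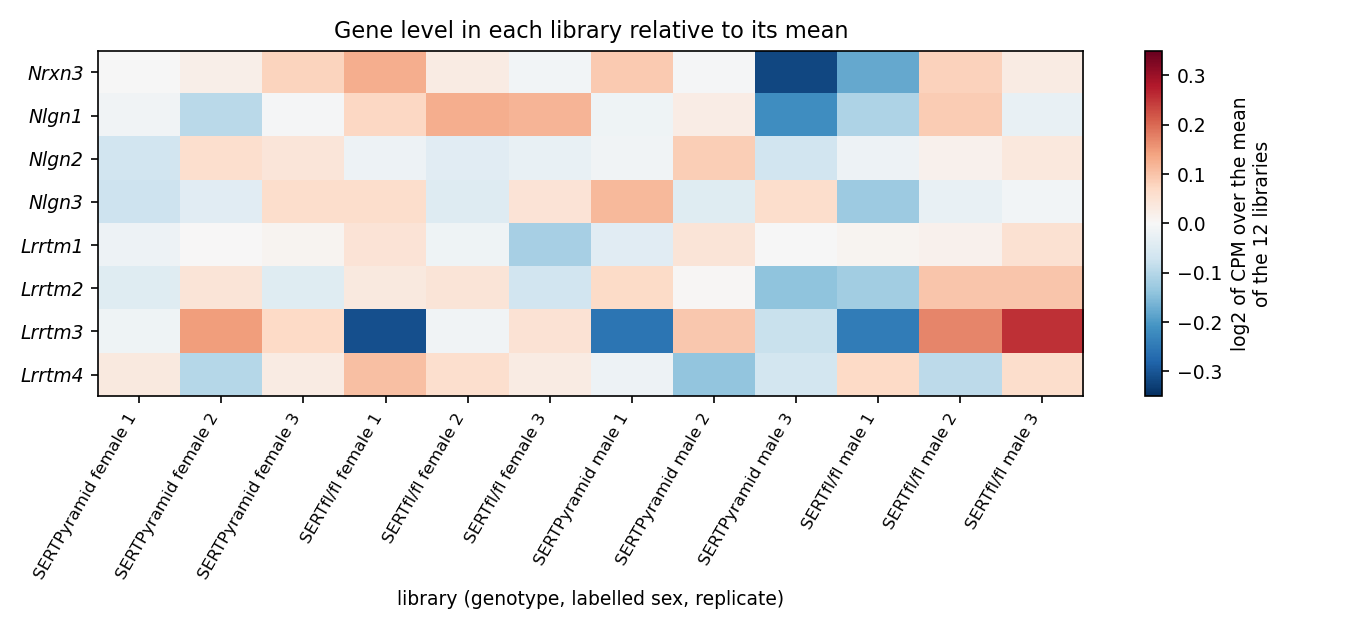
Log2 of CPM over the mean of the 12 libraries for each gene with counts (rows) in each library (columns, SERTPyramid left of SERTfl/fl within each labelled sex); red is above and blue below the mean. SERTPyramid replicate 3 labelled male and SERTfl/fl replicate 1 labelled male are low for Nrxn3, Nlgn1 and Lrrtm2, and replicate 1 of 3 groups is low for Lrrtm3.

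Library-to-library patterns were shared by some of the genes. SERTPyramid replicate 3 labelled male and SERTfl/fl replicate 1 labelled male had the 2 lowest values of Nrxn3 (164 and 180.1 CPM), of Nlgn1 (83.4 and 89.9 CPM) and of Lrrtm2 (46.7 and 47.3 CPM). For each gene the 3 genes with the most similar log2 CPM over the 12 libraries were sought among 13703 genes, as a description of these libraries. The genes most like Nlgn1 included the BMP receptor gene Bmpr1a (Pearson r = 0.947, Spearman rho = 0.923) and the chloride transporter gene Clcn3 (r = 0.945). Nrxn3 was most like the microtubule-associated protein gene Map1a (r = 0.963, rho = 0.874), Usf3 (r = 0.961) and Prickle2 (r = 0.960). Lrrtm3 was most like Cobl (r = 0.952, rho = 0.965), Vwc2l (r = 0.931) and St3gal1 (r = 0.928). The highest r for the other 5 genes was 0.935 for Lrrtm2 with Raph1, 0.894 for Nlgn3 with Wdr54, 0.892 for Nlgn2 with Adamts15, 0.891 for Lrrtm1 with Pdp2 and 0.877 for Lrrtm4 with Brd7. All points share the same 12 libraries, and the pairs were picked as the highest of many.

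Genes that act with neurexins, neuroligins and LRRTM proteins were then taken by list, and 0 genes of any list passed in either labelled sex. Among 20 ligands and surface partners of neurexins, 4 were lower and 1 higher at an unadjusted p under 0.05 among labelled females, against 8.04% of all genes, and 1 was higher among labelled males, against 3.16%. Fam19a1, a secreted neurexin ligand gene, had 24.6 ± 0.929 CPM in SERTPyramid and 28.6 ± 0.571 CPM in SERTfl/fl libraries labelled female (SD, n = 3 each), a log2 ratio of -0.22 with an edgeR adjusted p of 0.530. Clstn2, a calsyntenin gene, had 196 ± 3.69 CPM in SERTPyramid and 224 ± 3.29 CPM in SERTfl/fl libraries labelled female (SD, n = 3 each), a log2 ratio of -0.19 with an edgeR adjusted p of 0.586. C1ql2, whose protein links neurexins to kainate receptors, had the smallest p of this list among labelled males (log2 fold change 0.42, adjusted p = 0.999, edgeR) and had -0.33 among labelled females (adjusted p = 0.530, edgeR). C1ql2 is also 1 of the 6 dentate granule markers summed above, as is Ntng1 below.

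Of 13 inhibitors, shedding enzymes and neurexin splicing factors, 12 were below 0 among labelled females and 10 among labelled males, with medians of -0.05 and -0.06 and with 2 and 0 lower at an unadjusted p under 0.05, against 8.04% and 3.16% of all genes. Mdga1 encodes a membrane protein that blocks neuroligin from binding neurexin. It had 250.3 ± 12.9 CPM in SERTPyramid and 278 ± 11.9 CPM in SERTfl/fl libraries labelled female, and 256 ± 19.9 CPM in SERTPyramid and 276 ± 8.92 CPM in SERTfl/fl libraries labelled male (SD, n = 3 each). edgeR put the log2 ratio at -0.15 ± 0.06 (SE) among labelled females (adjusted p = 0.567) and at -0.11 ± 0.06 among labelled males (adjusted p = 0.999). Adam10, a protease that sheds neuroligins and neurexins, had a log2 fold change of -0.10 (adjusted p = 0.607, edgeR) among labelled females.

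Of 17 intracellular partners, 13 were below 0 among labelled females and 14 among labelled males, with medians of -0.04 and -0.05. At an unadjusted p under 0.05 in edgeR, 2 and 0 were lower, against 8.04% and 3.16% of all genes. Cask, a scaffold kinase gene whose protein binds the neurexin tail, had 127 ± 0.777 CPM in SERTPyramid and 142 ± 5.40 CPM in SERTfl/fl libraries labelled female (SD, n = 3 each), a log2 ratio of -0.15 with an edgeR adjusted p of 0.567. Gphn, the gephyrin gene of inhibitory postsynapses, had a log2 fold change of -0.09 (adjusted p = 0.633, edgeR). Of 31 genes of other synaptic organizers, 22 were below 0 among labelled females and 21 among labelled males, with 2 lower in each at an unadjusted p under 0.05, against 8.04% and 3.16% of all genes. Flrt3, a latrophilin partner gene, had 21.7 ± 1.28 CPM in SERTPyramid and 26.1 ± 0.900 CPM in SERTfl/fl libraries labelled female (SD, n = 3 each), a log2 ratio of -0.26 with an edgeR adjusted p of 0.530. Ntng1, the netrin-G1 gene, had 16.6 ± 0.341 CPM in SERTPyramid and 19.9 ± 0.550 CPM in SERTfl/fl libraries labelled male (SD, n = 3 each), a log2 ratio of -0.27 with an edgeR adjusted p of 0.999. Over all genes tested, 49.9% were above 0 among labelled females and 50.5% among labelled males.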

How the data were processed

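Per the labels' protocols, RNA came from a Trizol extraction cleaned on columns, and the libraries are TruSeq RNA v2, a kit without strand information. The authors deposited counts of reads per Ensembl gene, whole and not normalized, on mm10 per the submitters' processing notes. Aligner, annotation and counting settings: not given in the sources used here. All 12 columns matched a sample by title, and 0 columns and 0 entries that name no gene were left over. Symbols, coordinates and exon lengths came from GENCODE M21 (GRCm38).

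Genes kept by filterByExpr (17631, of them 8 of the 9 described) were scaled by TMM and tested with edgeR 4.0.16 under R 4.3.3 (quasi-likelihood, robust, all 12 libraries in 4 groups). Each SE was taken as |log2 ratio| divided by √F. Single-library CPM use the same scaling. Alternatives were DESeq2 1.42.0, limma 3.58.1 voom, RLE scaling, other filters, a replicate block, Y-linked expression as a covariate, the compared groups alone, an adjusted p of 0.1 and leaving out libraries. The code was tested on simulated data.

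All 9 genes, their hosts and up to 4 genes per list with the smallest p were named, and for likeness the 3 genes with the highest r (mean log2 CPM at least 1, prior count 2). 1 likeness result is not reported here. The genes and lists were chosen with earlier results of these data known. Libraries of a group differed beyond sampling noise (chi-square over degrees of freedom 2.52 to 13.8).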

Additional observations from a re-analysis of the deposited data

Results flagged for a closer look

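Nrxn3 stood out in 1 library. Over the 6 SERTPyramid libraries, SERTPyramid replicate 3 labelled male lay at 164 CPM while the others lay between 203 and 217 CPM. The gap to its neighbour was 0.740 of the whole range, above Dixon's critical value for 6 libraries. The 6 libraries join both labelled sexes. Chance alone marks about 1 in 20 such groups, and 16 were examined. The SERTfl/fl libraries ran from 180.1 to 223 CPM without such a gap.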

How the results depend on the processing

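At an adjusted p of 0.05, none of the 8 genes was called in any of 656 values computed under the alternative settings, and 50 of these changed sign, the largest of them 0.08 in size on the log2 scale. Among labelled females Nlgn1 kept its direction, from -0.16 to -0.11, with an adjusted p of at least 0.0702. With a threshold of 0.1, none of the 8 was called in the fit of all 12 libraries, while Nlgn1 would pass in the labelled-female libraries alone. In the fit of those 6 libraries alone, leaving out each in turn (an alternative added after the data were seen) gave -0.159 to -0.112 with adjusted p from 0.0618 to 0.367.

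The count of genes called over the whole table was 0 in every comparison and changed as follows. Without a low-count filter it was 103 among labelled females, 5 among labelled males, 14 for the difference between labelled sexes and 66 for the mean. DESeq2 called 1 among labelled females and 1 for the difference. The labelled-female libraries alone gave 415, and 136 to 464 with 1 of them left out. Leaving out libraries gave 0 to 2 among labelled females and 0 to 144 for the mean, both highest without SERTPyramid replicate 2 labelled male. The cause was not tested.

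Values that changed sign outside the left-out libraries were as follows. With the Y-linked covariate, Nrxn3 was 0.0457 and Lrrtm2 0.0256 among labelled females, Lrrtm4 -0.0018 for the difference and Lrrtm1 0.00438 for the mean. Without SERTfl/fl replicate 1 of both labelled sexes, Nrxn3 was 0.0261 and Lrrtm2 6.3e-05 among labelled females and Lrrtm1 0.0174 for the mean. With voom, Lrrtm4 was -0.015 for the difference and Lrrtm1 0.00281 for the mean. Lrrtm1 was 0.000938 for the mean with no filter and 0.00124 with 1 CPM in 6 libraries.

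Leaving out each library gave, for those that changed sign, these ranges. Among labelled females they were -0.0436 to 0.0259 for Nrxn3, -0.0165 to 0.0649 for Lrrtm1 and -0.0501 to 0.00596 for Lrrtm2. Among labelled males they were -0.133 to 0.0626 for Nrxn3, -0.09996 to 0.0167 for Nlgn1, -0.0513 to 0.0257 for Nlgn2 and -0.115 to 0.0065 for Lrrtm2. For the difference they were -0.0791 to 0.119 for Nrxn3, -0.024 to 0.0999 for Lrrtm2 and -0.0195 to 0.0601 for Lrrtm4. For the mean they were -0.0735 to 0.023 for Nrxn3, -0.00429 to 0.037 for Nlgn2, -0.0197 to 0.021 for Lrrtm1 and -0.0664 to 0.0461 for Lrrtm3.

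Same-numbered libraries of different groups shared a number only: the correlation of their deviations from group means was -0.225 to 0.234, over 0.1 in 2 of 18 pairs. With the replicate block the count of genes called stayed 0, and Lrrtm3 was 0.00516 for the mean.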
